A study of Homo sapiens with 4 samples.

Results

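Of 45 genes known for promoter methylation in colorectal cancer, 38 had a usable probe and 4 of these (10.5%) gave no signal above background in any channel of 4 arrays of DLD-1 and HT-29 cells, against 4.25% of all named genes. For 27 the response to 5-aza-2'-deoxycytidine could be tested over both lines, and limma called 0 of them. It called 0.236% of all genes, so that a count of 0 among 27 says little about these genes. The 45 genes had been put together by name from what is reported of colorectal cancer, leaving out the WNT antagonist, cadherin, DNA repair, TIMP and CDKN families. Probes were found through the gene symbol in the platform's annotation. That annotation named 39 of the 45, and 38 genes with 53 probes were used, out of 12206 genes with 14174 probes named on the array. The probe of CHFR, a mitotic checkpoint ubiquitin ligase, was marked bad on at least 1 array. GATA5, HIC1, ALX4, SLC5A8, FBN2 and CRABP1 carried no platform symbol and were not analysed here beyond the scanner description of 1 CRABP1 probe.

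Methyl groups on the cytosine of CG pairs in a promoter go together with a silent gene in many cancers. 5-aza-2'-deoxycytidine, also called decitabine, is a cytidine analogue that is built into new DNA and traps DNA methyltransferases, so that methylation is lost as cells divide and some silenced genes are transcribed again. Several of the genes described here, among them VIM, NDRG4, BMP3, TFPI2 and SDC2, are known as methylation markers of colorectal tumours in stool or blood, and NEUROG1, CACNA1G, SOCS1, RUNX3 and CRABP1 as markers of the CpG island methylator phenotype.

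The study looked in 2 human lines of colorectal adenocarcinoma, DLD-1 and HT-29, for genes that are silenced by methylation and come on with the drug. Cells grown in RPMI1640 with 10% serum were plated for 24 h and then kept in 1 µM drug for 96 h, and were set against cells of the same line described only as the line itself. Each line had 2 arrays, and on each array treated and untreated RNA were hybridised together, treated RNA in Cy5 on array 1 and in Cy3 on array 2. No label says that the arrays of a line came from separate cultures, so a line was counted as 1 replicate. The p-values over both lines rest only on the spread between lines, which limma pooled over genes. The files number the channels without naming a dye, which leaves the direction of array 2 unsettled. Across 8470 genes the log2 ratios of channel 2 over channel 1 had r = -0.396 between the DLD-1 arrays, r = 0.022 between the HT-29 arrays and r = 0.474 between array 1 of DLD-1 and array 1 of HT-29. In what is called the working reading, channel 2 stands for treated RNA on every array, and the treated and untreated channels of array 2 are named by it below. Most counts and means are also given with the sign of array 2 turned, called the labels' channel order. On these arrays the Cy3 side under the working reading has the higher local background. On array 1 the median was 329 in channel 1 and 277 in channel 2 for DLD-1, and 358 and 62.2 for HT-29. On array 2 channel 2 was the higher, at 542 against 93.3 in DLD-1 and 569 against 351 in HT-29. Which dye that channel held depends on the reading, and the reading was not tested by it. Array 1 of each line does not depend on that choice.

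Above background means that a probe's intensity, less the local background around its spot, was over 2 SD of that background. Between 22073 and 25787 of 29591 probes passed in at least 1 channel of an array. All 9 epithelial markers measured were above background in at least 1 channel and 7 of them in all 8 channels, among them EPCAM, KRT8 and CDH1. The exceptions were CDX1, above background in 2 channels, and LGALS4, in 5. Markers of cells that these cultures should not hold were also above background: 4 of the 6 measured, the T cell gene CD3E and the fibroblast genes COL1A1, COL3A1 and DCN, passed in all 8 channels, and none was below in every channel. Between 1.74% and 6.94% of the 288 empty or negative spots passed as well. A signal above background is therefore reported as that and not as transcription. The signal of a probe below it has only an upper bound, and whether such a probe can detect its transcript was not tested.

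**Figure D1:**
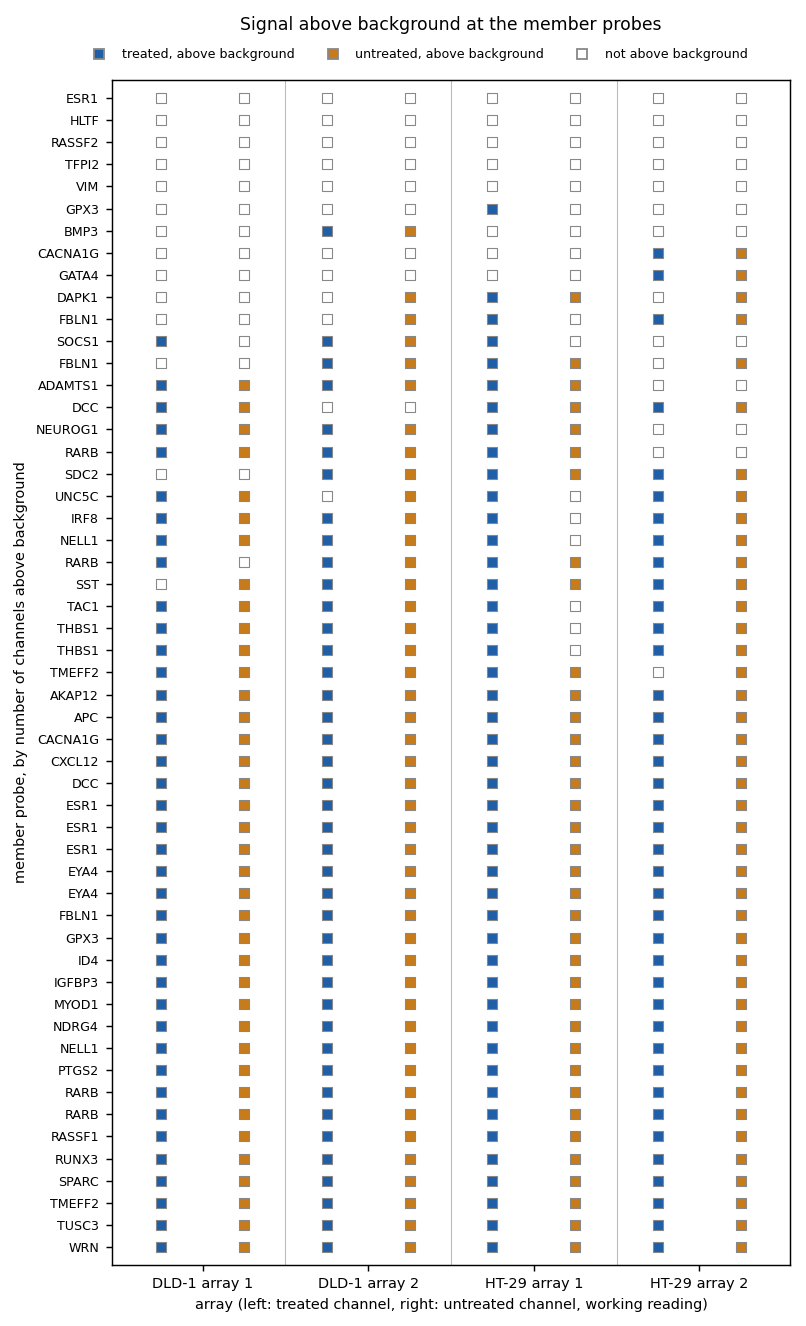
Each row is a member probe, ordered by the number of channels above background, and each pair of squares is 1 array, with the treated channel on the left and the untreated channel on the right under the working reading. Blue marks a treated and orange an untreated channel above background, and open squares mark channels not above it. The 5 probes at the top were above background in none of 8 channels and the 26 at the bottom in all 8.

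RASSF2, HLTF, VIM and TFPI2 were not above background in any of the 8 channels, and are called dark here. RASSF2 is a RAS-binding tumour suppressor, HLTF a SWI/SNF-related helicase, VIM the intermediate filament vimentin of mesenchymal cells and TFPI2 a secreted inhibitor of serine proteases. They were 4 of 38 genes (10.5%), against 4.25% of all named genes and 2 of the 65 family relatives that were measured. Each of the 4 had a single probe, and they were also the members dark in untreated cells of both lines, where 5.72% of all genes were. No second probe shows whether these probes can detect their transcripts. The VIM spot on DLD-1 array 1 read 303 in the treated channel over a local background of 298, and 347 in the untreated channel over 351. HLTF on HT-29 array 1 read 52.9 in the treated channel over 96.0, and 449 in the untreated channel over 360. TFPI2 stood somewhat higher, at 568 in the treated channel over 277 on DLD-1 array 1, against 259 in the untreated channel over 329, and at 745 over 547 in channel 2 against 88.8 over 93.0 in channel 1 on DLD-1 array 2. None of these readings passed the threshold, so no fold is given for TFPI2. On HT-29 array 1 its spot read 85.0 over 67.9 in the treated channel and 450 over 369 in the untreated one.

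Promoter windows of these 4 genes are shown because the drug was meant to take methylation from silenced promoters. They come from RefSeq on GRCh38.p14 and run from 250 bases before to 50 after an annotated start, 5′ to 3′ on the gene's strand, with CG pairs in capitals. The windows are chr20:4815098-4815397 on the minus strand for RASSF2, chr3:149086484-149086783 on the minus strand for HLTF, chr10:17227991-17228290 on the plus strand for VIM and chr7:93890704-93891003 on the minus strand for TFPI2. The start used for RASSF2 lies 8461 bases inside the gene's outer end, so that its window may not be the promoter known for methylation. Those of the other genes lie at the outer end. None of the 4 windows was checked against the stretch known for methylation.
RASSF2: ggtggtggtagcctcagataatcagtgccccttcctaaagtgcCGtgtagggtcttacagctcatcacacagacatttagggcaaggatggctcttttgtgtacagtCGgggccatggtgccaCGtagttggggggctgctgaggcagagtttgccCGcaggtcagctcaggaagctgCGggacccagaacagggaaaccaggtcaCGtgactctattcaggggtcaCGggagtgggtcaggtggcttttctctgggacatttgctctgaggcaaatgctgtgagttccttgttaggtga
HLTF: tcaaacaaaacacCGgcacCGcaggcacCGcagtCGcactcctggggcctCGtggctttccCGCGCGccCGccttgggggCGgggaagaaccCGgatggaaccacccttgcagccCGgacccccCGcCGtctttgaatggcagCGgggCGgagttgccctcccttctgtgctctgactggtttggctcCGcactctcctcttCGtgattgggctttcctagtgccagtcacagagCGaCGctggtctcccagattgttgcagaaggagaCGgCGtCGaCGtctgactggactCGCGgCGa
VIM: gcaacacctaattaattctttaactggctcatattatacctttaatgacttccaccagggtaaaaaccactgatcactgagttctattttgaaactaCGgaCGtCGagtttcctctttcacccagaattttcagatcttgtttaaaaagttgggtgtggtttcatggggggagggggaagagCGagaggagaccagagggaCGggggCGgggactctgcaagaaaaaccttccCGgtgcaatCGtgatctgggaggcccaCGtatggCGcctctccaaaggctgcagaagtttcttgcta
TFPI2: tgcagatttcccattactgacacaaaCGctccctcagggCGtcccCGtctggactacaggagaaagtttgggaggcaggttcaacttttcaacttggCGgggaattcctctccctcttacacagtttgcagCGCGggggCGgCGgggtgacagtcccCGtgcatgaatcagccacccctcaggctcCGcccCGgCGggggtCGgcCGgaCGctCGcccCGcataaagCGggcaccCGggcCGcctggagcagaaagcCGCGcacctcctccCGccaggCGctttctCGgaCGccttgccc
The HLTF and TFPI2 windows held 27 and 26 CG pairs in 300 bases, while the VIM window held 10 and the RASSF2 window 7.

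In untreated DLD-1, 5 of 38 members were not above background on either array (13.2%), against 8.36% of all named genes. They were the 4 dark genes and GATA4, a zinc finger transcription factor of endoderm and heart. GATA4 read 450 over a local background of 351 in the untreated channel of DLD-1 array 1 and 182 over 111 on DLD-1 array 2. On HT-29 array 2 the same probe read 2133 in the treated channel and 1916 in the untreated one, both above background. On HT-29 array 1 it was above background in neither channel, at 226.9 over 126.5 treated and 553 over 395 untreated. These 5 were silent under both readings, as were 7.54% of all genes. The labels' channel order added DAPK1, a calmodulin-dependent kinase of cell death, for 6 members against 11.9% of all genes. On DLD-1 array 1 alone there were 9, with BMP3, SOCS1, DAPK1 and SDC2 added to the 5, against 25.1% of all genes.

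In untreated HT-29, 6 of 38 members were not above background on either array (15.8%), against 11.8% of all named genes. These were the 4 dark genes with BMP3, a secreted factor of the BMP family, and SOCS1, an inhibitor of JAK signalling. The labels' channel order gave the same 6, against 13.4% of all genes, and 11.2% of genes were silent under both readings. SOCS1 read 432 over a local background of 345 in the untreated channel of HT-29 array 1 and 926 over 366 on HT-29 array 2. On array 2 its signal less background was above 553, the 95th percentile of empty and negative spots in that channel. By that threshold SOCS1 would not be called silent in HT-29 in the working reading. BMP3 read 223 over a local background of 567 in the untreated channel of HT-29 array 1 and 425 over 236 on HT-29 array 2. In DLD-1 it was above background in both channels of array 2, at 1098 treated and 942 untreated, and in neither channel of array 1. The scanner files describe the BMP3 probe as bmp2 and the RUNX3 probe as aml1, so these names rest on the platform table. HT-29 array 1 alone gave 11 members against 28.6% of all genes, adding THBS1, GATA4, TAC1, UNC5C and IRF8 to the 6.

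A gene was called switched on where the untreated signal was not above background, the treated signal was, and their ratio reached 2, each time on the pair of arrays of a line. No member met this in DLD-1, where 4 of 12206 genes did (0.0328%), or in HT-29, where 1 did (0.00819%). The labels' channel order also gave no member, against 0.0492% of all genes in DLD-1 and 0.0328% in HT-29. HT-29 array 1 taken alone gave 1 of 38 members (1.29% of all genes met the rule there), and DLD-1 array 1 alone gave 0 (0.827%). The member was UNC5C, a netrin receptor, which read 194 in the treated channel over 36.3 and 229 in the untreated channel over 323. On HT-29 array 2 UNC5C was bright in both channels, at 3917 treated and 4248 untreated. The untreated signal of UNC5C in HT-29 was thus below the threshold on array 1 and well above it on array 2, under either reading.

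Member probes above background in channel 2 only were 9 of 53 on HT-29 array 1, where 16.8% of all named probes did this. There the median local background was 62.2 in channel 2, which holds treated RNA, and 358 in channel 1. The 9 were probes of TAC1, FBLN1, NELL1, UNC5C, IRF8, SOCS1 and GPX3 and both of THBS1. On DLD-1 array 1 the count was 2 of 53, RARB and SOCS1, against 5.71% of all probes, and on both arrays 2 it was 0, against 1.19% in DLD-1 and 1.24% in HT-29. Probes seen in channel 1 only numbered 3 on DLD-1 array 2, from FBLN1, DAPK1 and UNC5C, against 8.66%, and 3 on HT-29 array 2, from FBLN1, TMEFF2 and DAPK1, against 4.78%. On DLD-1 array 1 SST was the sole such probe, against 2.81%, and on HT-29 array 1 there was none, against 0.529%. The part of local background in these counts was not tested.

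At the other end, 22 members had a probe above background in all 8 channels (57.9%), against 53.0% of all genes and 29 of 65 relatives. Among these were the transcription factors ESR1, MYOD1, EYA4, ID4, RUNX3 and RARB, the growth suppressors RASSF1 and APC, and the matrix genes SPARC and FBLN1. Probes of a gene could disagree. ESR1 had 3 probes above background in all 8 channels and 1 in none, and GPX3 had 1 probe in all 8 and 1 in a single channel.

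The response to the drug was measured for 27 members, those with a probe above background in at least 1 channel on all 4 arrays. None was called by limma, a moderated linear model of the 2 line means against 0 with Benjamini-Hochberg adjustment over 8470 genes, in which 0.189% of genes were called higher and 0.0472% lower. At an unadjusted p under 0.05 there was 1 member, GPX3, against 4.99% of all genes. Under the labels' channel order limma again called 0 members, against 0.661% of genes higher and 0.0236% lower, and at an unadjusted p under 0.05 there were 2, RUNX3 and UNC5C, against 11.0% of all genes. The members' mean log2 ratios ran from -0.35 to 0.47 with a median of 0.00, against a median of 0.01 over all genes, and 14 were above 0 and 13 below. The standard error of such a mean was 0.217 for each gene, because limma pooled the spread between lines over genes. The p of a member thus follows from the size of its mean and not from how far apart its own lines lay. Turning array 2 moved the members' median to -0.07, against 0.05 over all genes.

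Within a line no p can be had, and a change was counted where both arrays gave at least 2-fold in 1 direction. None of 30 members did so in DLD-1, against 0.168% of genes higher and 0.0105% lower, and none of 29 in HT-29, against 0.124% higher and 0.0309% lower. The labels' channel order gave none either, against 0.273% higher and 0.021% lower in DLD-1 and 0.237% higher in HT-29. Ratios of 1 sign on both arrays were found for 9 of 30 members in DLD-1, where 32.7% of all genes had them, and for 16 of 29 in HT-29, where 56.3% did. With array 2 turned these were 21 of 30 members in DLD-1, against 67.3% of genes, and 13 of 29 in HT-29, against 43.7%. On single arrays members past 2-fold were RASSF1 and SST on DLD-1 array 1, where 4.37% of all genes were, and DAPK1 and RUNX3 on DLD-1 array 2, where 5.72% were. In HT-29 they were NDRG4 and UNC5C on array 1, against 4.8% of all genes, and GPX3 on array 2, against 3.51%. Without the filter on dim probes 1 of 38 members, TFPI2, passed 2-fold on both DLD-1 arrays in the working reading, against 0.238% of all genes. Its spot was below the threshold in every channel, and with array 2 turned the DLD-1 arrays had opposite signs. Over all 4 arrays THBS1, DCC and FBLN1 kept 1 sign, and 7.89% of all genes did. The values of DCC and FBLN1 each came from a single probe, and the other probes of these genes had both signs over the arrays. With array 2 turned, 8 members kept 1 sign, against 15.9% of all genes: APC, ESR1, EYA4, AKAP12, UNC5C, IRF8, TUSC3 and RARB.

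**Figure D2:**
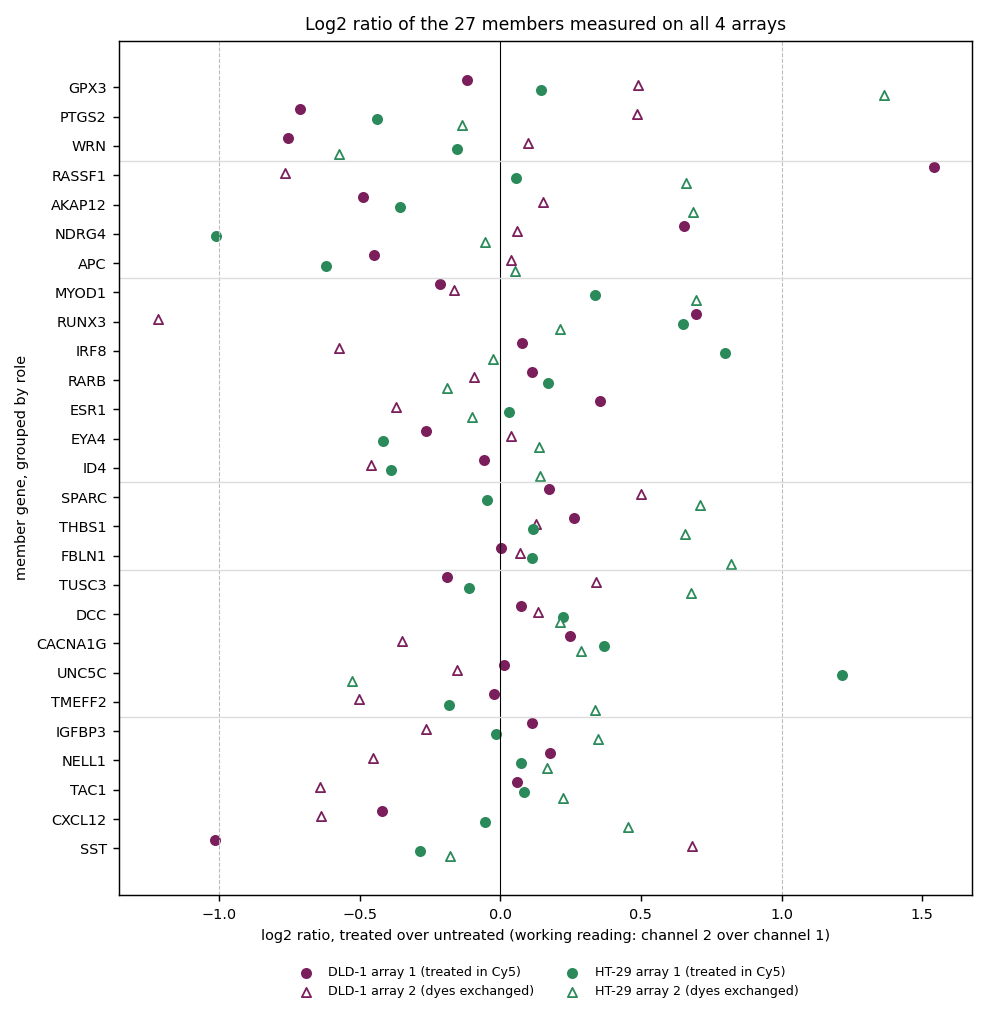
Log2 ratio of treated over untreated signal for the 27 members measured on all 4 arrays, grouped by role, with channel 2 over channel 1 on the horizontal axis. Filled circles are array 1 and open triangles array 2, and purple is DLD-1 and green HT-29. Dashed lines mark 2-fold, and no member has both symbols of a colour beyond the same dashed line.

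Among the transcription factors and chromatin genes 7 of 10 used members were measured on all arrays, with a median log2 ratio of 0.00 and 0 called. MYOD1, the master factor of skeletal muscle, had log2 ratios of -0.21 and -0.17 on the DLD-1 arrays and 0.34 and 0.70 on the HT-29 arrays. Its DLD-1 arrays were thus both below 0 and its HT-29 arrays both above. Its mean of 0.16 ± 0.22 (SE pooled over genes, 2 lines) had an adjusted p of 0.990 in limma and became -0.10 under the labels' channel order. ID4, an inhibitor of helix-loop-helix factors, had -0.06 and -0.46 in DLD-1 and -0.39 and 0.14 in HT-29. Its mean was -0.19 with an adjusted p of 0.990 in limma, and -0.03 with array 2 turned.

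RUNX3, a Runt-domain factor downstream of TGF-beta, had log2 ratios of 0.70 and -1.22 in DLD-1 and 0.65 and 0.21 in HT-29. The DLD-1 arrays lay on opposite sides of 0. With array 2 turned its mean became 0.59, with an adjusted p of 0.298 in limma. IRF8, an interferon regulatory factor of blood cells, had 0.08 and -0.57 in DLD-1 and 0.80 and -0.03 in HT-29, and in the labels' channel order all 4 were above 0. ESR1, the oestrogen receptor, and RARB, a retinoic acid receptor, were near 0 over both lines, with means of -0.02 and 0.00 in the working reading and 0.21 and 0.14 in the labels' channel order. Both are averages of 3 probes that did not move together, as the RARB probes ranged from -0.90 to 0.80 on DLD-1 array 1. The 2 probes of EYA4, a phosphatase and transcription coactivator, had ratios of -0.96 and 0.44 on DLD-1 array 1. NEUROG1, a neuronal helix-loop-helix factor, could be followed in DLD-1 only and had 0.23 and -0.13 there.

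In the group of growth control, signalling and cell death genes 4 of 7 used members were measured on all arrays, and 0 were called. RASSF1, a RAS-effector tumour suppressor, had the largest ratio of the 27 measured members on DLD-1 array 1. Its spot read 3088 in the treated channel and 918 in the untreated channel of that array, a log2 ratio of 1.54. On DLD-1 array 2 it read 2355 in channel 2 and 3510 in channel 1, a log2 ratio of -0.77, and in HT-29 the ratios were 0.06 and 0.66. Its DLD-1 arrays had opposite signs, so that the DLD-1 mean was 0.39 ± 1.63 (SD, n = 2 arrays) in the working reading and 1.15 ± 0.55 in the labels' channel order, a 2.22-fold mean. In HT-29 the mean was 0.36 in the working reading and -0.30 in the labels' order. Over both lines the mean was 0.37, with an adjusted p of 0.990 in limma, and 0.43, with an adjusted p of 0.510, in the labels' order. DLD-1 array 2 weighed on this mean: when it was left out RASSF1 had a mean of 0.95 over both lines. With array 1 of that line left out instead the mean was -0.20. In either case 1 array stands for DLD-1, and dye orientation no longer cancels there.

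The RASSF1 window below is the RefSeq entry, chr3:50337401-50337700 on the minus strand of GRCh38.p14, with CG in capitals, shown because this gene had the largest ratio of the measured members on DLD-1 array 1. Its start lies 3386 bases inside the gene's outer end, so that it may not be the promoter known for methylation, and the window holds 33 CG pairs.
RASSF1: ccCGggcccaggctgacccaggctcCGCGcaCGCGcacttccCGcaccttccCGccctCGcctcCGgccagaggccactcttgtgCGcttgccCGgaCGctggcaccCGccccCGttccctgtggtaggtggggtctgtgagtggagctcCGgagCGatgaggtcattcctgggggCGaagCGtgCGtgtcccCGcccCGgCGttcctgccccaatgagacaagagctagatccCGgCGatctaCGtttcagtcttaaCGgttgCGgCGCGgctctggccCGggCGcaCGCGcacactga
The probe does not say which start a transcript used.

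APC, the scaffold that destroys beta-catenin and is mutated in most colorectal cancers, had log2 ratios of -0.45 and 0.04 in DLD-1 and -0.62 and 0.05 in HT-29. Array 1 was below 0 in both lines while array 2 lay at 0. Its mean was -0.24 with an adjusted p of 0.990 in limma, and -0.29 in the labels' channel order. AKAP12, a kinase-anchoring scaffold, was also below 0 on array 1 of both lines, but its array 2 lay above 0. It had -0.49 and 0.15 in DLD-1 and -0.36 and 0.69 in HT-29. Its mean was 0.00 in the working reading and -0.42 with array 2 turned. NDRG4, known as a stool methylation marker, had 0.65 and 0.06 in DLD-1 and -1.01 and -0.05 in HT-29, with a mean of -0.09 in either reading. DAPK1 could be followed in HT-29 only, where it had -0.53 and -0.31, and SOCS1 in DLD-1 only, where it had 0.53 and -0.12.

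Of the surface receptors, channels and transporters 5 of 6 used members were measured on all arrays, with a median log2 ratio of 0.14 and 0 called. TUSC3, a subunit of the oligosaccharyltransferase complex, had -0.19 and 0.34 in DLD-1 and -0.11 and 0.68 in HT-29. Its mean of 0.18 (adjusted p 0.990 in limma) became -0.33 with array 2 turned. DCC, a netrin receptor lost in many colorectal cancers, had 0.07 and 0.13 in DLD-1 and 0.22 and 0.21 in HT-29. All 4 were a little above 0 in the working reading, and with array 2 turned they had both signs. They came from 1 of its 2 probes, the one above background on all 4 arrays. The other probe, not above background on DLD-1 array 2, read -0.04 and -0.14 in DLD-1 and 0.08 and 0.85 in HT-29. With the probe used, the mean was 0.16 with an adjusted p of 0.990 in limma, and -0.01 in the labels' channel order. The DLD-1 mean turned to -0.08 when arrays were median centred. UNC5C had 0.01 and -0.16 in DLD-1 and 1.21 and -0.53 in HT-29, and the HT-29 arrays had opposite signs. Its mean of 0.14 became 0.48 with an adjusted p of 0.444 in limma with array 2 turned. CACNA1G, a T-type calcium channel subunit, had 0.25 and -0.35 in DLD-1 and 0.37 and 0.29 in HT-29, with a mean of 0.14, or 0.17 with array 2 turned. TMEFF2, a transmembrane proteoglycan, had a mean of -0.09, or -0.01 with array 2 turned, and SDC2, the syndecan-2 proteoglycan, was measured in HT-29 only, at -0.21 and -0.65.

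Of the secreted signals and binding proteins 5 of 6 used members were measured on all arrays, with a median of -0.07 and 0 called. SST, the hormone somatostatin, had log2 ratios of -1.02 and 0.68 in DLD-1 and -0.29 and -0.18 in HT-29. On DLD-1 array 1 its treated channel read 554 and was not above background, while the untreated channel read 1034 and was. The HT-29 arrays both lay a little below 0 and the DLD-1 arrays had opposite signs. The mean was -0.20 (adjusted p 0.990 in limma), it was -0.45 in the labels' channel order, and without DLD-1 array 1 it was 0.22. CXCL12, the chemokine that binds CXCR4, had -0.42 and -0.64 in DLD-1 and -0.05 and 0.45 in HT-29. It was the member lowest in DLD-1, at -0.53 ± 0.15 (SD, n = 2 arrays), which turned to 0.11 with the sign of array 2. TAC1, the precursor of substance P, IGFBP3, which binds insulin-like growth factors, and NELL1, a secreted factor of bone growth, had means of -0.07, 0.04 and -0.01, which were 0.14, 0.00 and 0.13 in the labels' channel order.

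Of the matrix genes and their protease inhibitors 3 of 5 used members were measured on all arrays, and the mean log2 ratio was above 0 for all 3, with a median of 0.29 and 0 called. SPARC, a matrix-binding glycoprotein, had 0.17 and 0.50 in DLD-1 and -0.05 and 0.71 in HT-29, with a mean of 0.33. THBS1, the matrix glycoprotein thrombospondin-1, had 0.26 and 0.13 in DLD-1 and 0.12 and 0.66 in HT-29, with a mean of 0.29. FBLN1, a basement membrane protein, had 0.00 and 0.07 in DLD-1 and 0.11 and 0.82 in HT-29, with a mean of 0.25. Those values came from 1 of its 3 probes, the one above background on all 4 arrays. On HT-29 array 2 the other probes read 0.16 and -0.75. In HT-29 all 3 probes passed, and their averages were 0.06 and 0.08 on the arrays. All 3 were highest on HT-29 array 2 and had an adjusted p of 0.990 in limma. With array 2 turned all 3 means were below 0, at -0.27 for SPARC, -0.10 for THBS1 and -0.19 for FBLN1. ADAMTS1, a secreted metalloprotease, was measured in DLD-1 only, at -0.23 and 0.07.

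Of the enzymes and the rest 3 of 4 used members were measured on all arrays. GPX3, the secreted glutathione peroxidase of plasma, had the highest mean of all 27 members. Its brighter probe had log2 ratios of -0.12 and 0.49 in DLD-1 and 0.15 and 1.36 in HT-29. The HT-29 array 2 spot, at 4814 in channel 2 and 1408 in channel 1, stood well apart from the other 3. The mean was 0.47 with an adjusted p of 0.845 in limma, and it was -0.46 with an adjusted p of 0.467 in the labels' channel order. WRN, the helicase of Werner syndrome, had -0.75 and 0.10 in DLD-1 and -0.15 and -0.57 in HT-29. Its mean of -0.35 was the lowest of the 27, with an adjusted p of 0.990 in limma, and it was -0.11 in the labels' channel order. PTGS2, the inducible cyclooxygenase COX-2, had -0.71 and 0.49 in DLD-1 and -0.44 and -0.14 in HT-29, with a mean of -0.20, or -0.38 with array 2 turned.

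**Figure D3:**
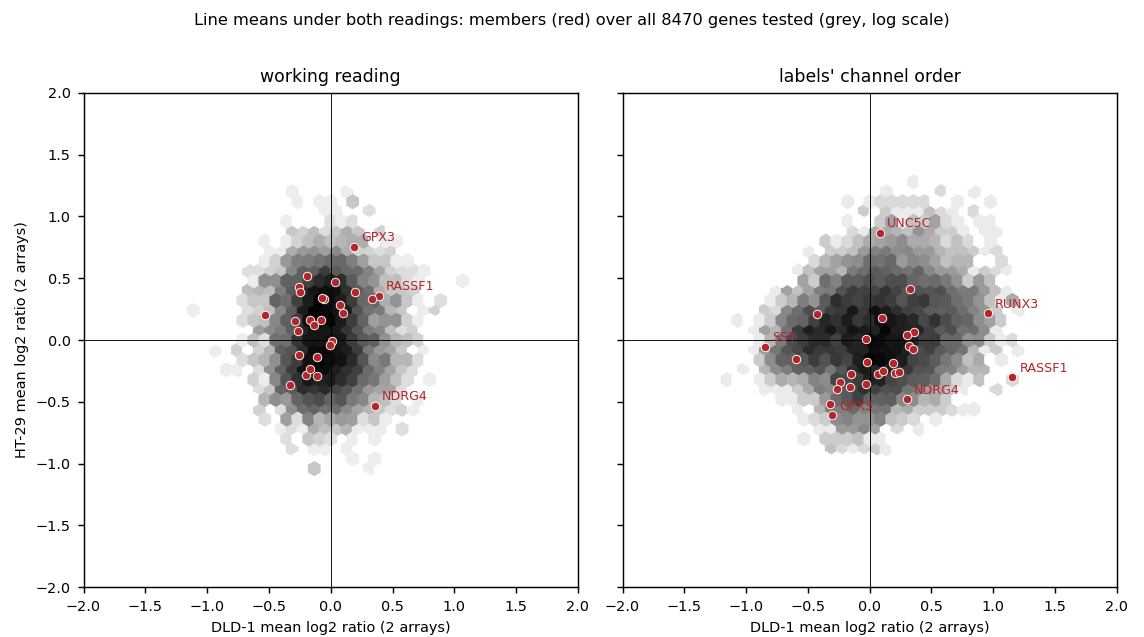
Mean log2 ratio of 2 arrays in DLD-1 (horizontal axis) against HT-29 (vertical axis), in the working reading on the left and the labels' channel order on the right. Red points are the 27 members and grey hexagons count all 8470 genes tested on a log scale. Most members lie inside the grey cloud in both panels, and RASSF1, at 1.15 in DLD-1 and -0.30 in HT-29 on the right, lies at its edge.

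Across the 27 members r was -0.564 between the DLD-1 arrays and -0.0294 between the HT-29 arrays in channel 2 over channel 1, against -0.396 and 0.022 over all genes. Between array 1 of DLD-1 and array 1 of HT-29, both with treated RNA in Cy5, r was 0.241 over the members and 0.474 over all genes. These arrays share a dye orientation, and the genes are no independent replicates. The family relatives of the members, such as RASSF3, RUNX1, ID1 and IGFBP2, gave 0 calls among 44 tested and a median of 0.02 in both readings.

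The average signal of both channels does not depend on the reading, and was used to set the lines side by side for 32 members that were above background on both arrays of at least 1 line. In DLD-1 1 member was at least 2-fold higher than in HT-29 with no overlap of arrays, where 11.3% of all genes were, and 1 was lower, where 7.19% were. The arrays of the lines did not overlap for 11 of 32 members (34.4%), against 35.0% of all genes. These counts lie below the share of all genes in both directions. DAPK1 was the lower one, with an average log2 signal of 8.43 and 8.57 in DLD-1 and 10.74 and 8.95 in HT-29, a difference of -1.35. Its DLD-1 arrays lay close together and its HT-29 arrays far apart, and in DLD-1 it was above background in a single channel. It entered the comparison through HT-29 alone, so the difference is no exact value and its direction follows from the filter. ID4 was the higher one, with 11.39 and 11.33 in DLD-1 and 11.25 and 9.14 in HT-29, a difference of 1.17 that came from HT-29 array 2. In the untreated Cy3 channel of array 1 ID4 differed by -0.02 between DLD-1 and HT-29 on the log2 scale, and DAPK1 by -2.41. In DLD-1 that channel of DAPK1 was not above background, at 381 over 280, so the -2.41 is no exact value either. The count of 2 members depended on single arrays. Leaving out array 1 gave 4 for DLD-1 (23.3% of all genes) and 10 for HT-29 (40.6%), and leaving out array 2 gave 7 for DLD-1 (33.0%) and 4 for HT-29 (29.2%). ID4 was not apart without HT-29 array 2 or with median centring, where CACNA1G took its place, and DAPK1 was not apart without HT-29 array 1. Among probes above background on all 4 arrays, a setting chosen after seeing the data, ID4 and RARB were apart, 2 of 27 members, against 14.1% of all genes.

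**Figure D4:**
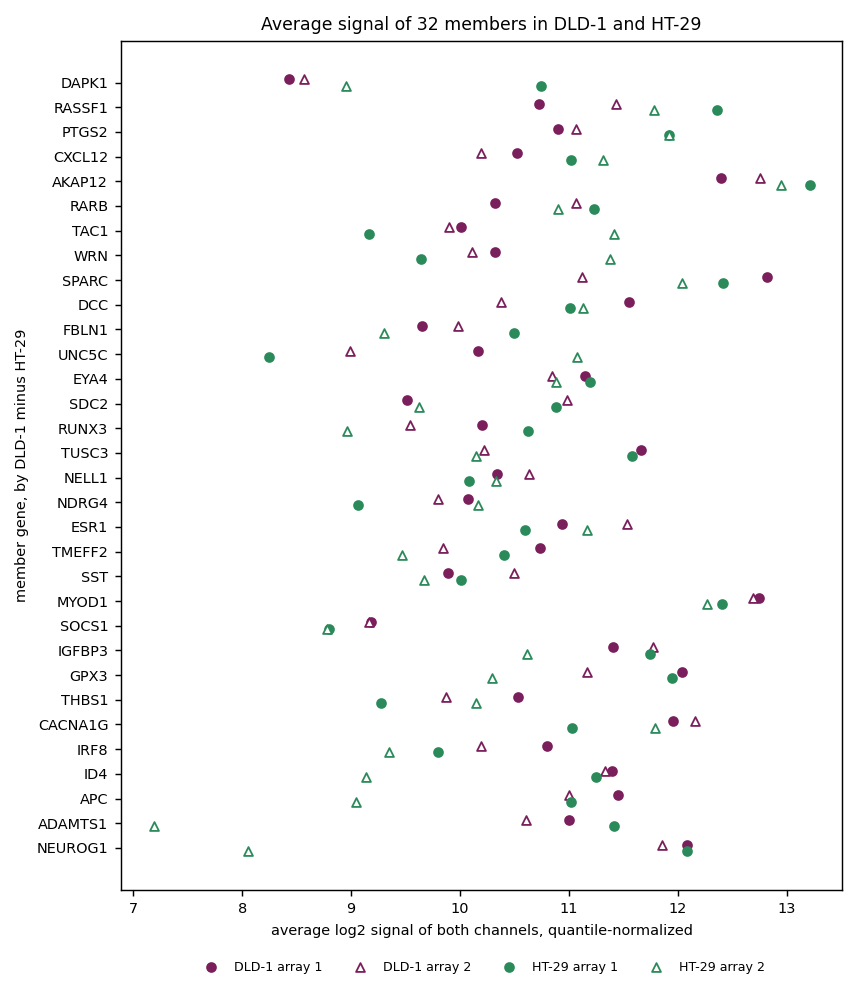
Average log2 signal of both channels, quantile-normalized between arrays, for 32 members ordered by DLD-1 minus HT-29. Purple is DLD-1 and green HT-29, and circles are array 1 and triangles array 2. At the bottom HT-29 array 2 lies far left of HT-29 array 1 for NEUROG1, at 8.06, and ADAMTS1, at 7.19.

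Other members whose arrays did not overlap differed between the lines by less than 2-fold. PTGS2 had 10.90 and 11.07 in DLD-1 and 11.92 in both HT-29 arrays, a difference of -0.94. CXCL12 had 10.53 and 10.19 in DLD-1 and 11.02 and 11.31 in HT-29, a difference of -0.81. RASSF1 was lower in DLD-1 too, at 10.73 and 11.44 against 12.36 and 11.78 in HT-29. IRF8 was higher in DLD-1, at 10.80 and 10.19 against 9.80 and 9.35 in HT-29. MYOD1 was higher in DLD-1 by 0.38, with the arrays of a line close together. SOCS1 did not overlap either, but it entered through DLD-1 alone, and both channels of HT-29 array 2 were below the threshold. The median gap between the arrays of a line was 0.38 for members in DLD-1 and 0.90 in HT-29, against 0.60 and 0.89 over all genes. For NEUROG1 and ADAMTS1 the gap in HT-29 was far wider. NEUROG1 had 12.09 and 11.85 in DLD-1 and 12.08 and 8.06 in HT-29, and ADAMTS1 had 11.00 and 10.60 in DLD-1 and 11.41 and 7.19 in HT-29. Neither was above background on HT-29 array 2, which is labelled as HT-29 array 1 with the dyes exchanged, and both entered through DLD-1 alone.

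Promoter windows of the kind printed above were found in the RefSeq table for 29 of the 38 members, and the window with most CG was taken where a gene had several starts. The members' windows held a median of 27 CG pairs, from 7 in RASSF2 to 49 in NDRG4, and the 9894 array genes with a window also had a median of 27. At least 20 CG pairs were found in 21 of the 29 (72.4%), against 69.3% of array genes. The 4 members dark in every channel had a median of 18, or 26 without RASSF2, the 8 between a median of 27, and the 17 with a probe above background in all 8 channels a median of 33. These medians are not on equal terms. Each dark member had a single window, while AKAP12, APC, ESR1, NDRG4, RARB and RUNX3 of the last group had several to take the highest from. The windows taken for AKAP12, RUNX3 and APC started 101739, 34862 and 30387 bases inside the gene and were kept. SOCS1, not above background in untreated HT-29, held 33 CG pairs, and RASSF1, above background in both channels of all arrays, also held 33. At the low end SPARC and SST held 11, PTGS2 12 and IRF8 9. The IRF8 window starts 3853 bases inside the gene's outer end, so that it may not be the promoter known for methylation. These are counts in the reference sequence, and methylation was not measured on these arrays.

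**Figure D5:**
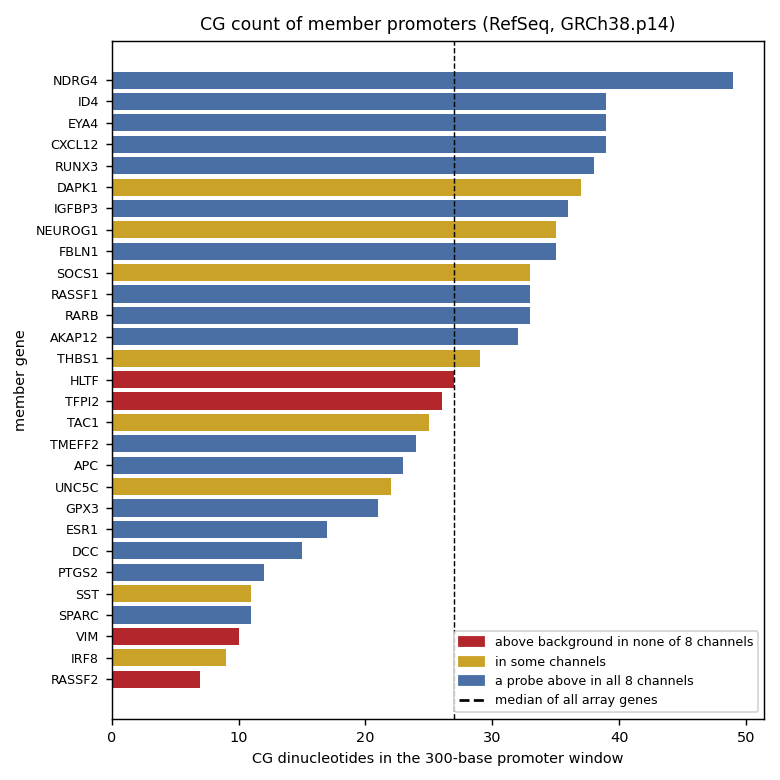
Number of CG pairs in the 300-base promoter window of 29 members, from RefSeq on GRCh38.p14, with bars coloured by how many of 8 channels were above background. The dashed line is the median of all array genes with a window, 27, and the 4 red bars, members dark in every channel, lie at 27, 26, 10 and 7.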

How the data were processed

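Per the labels, total RNA from TriZol was amplified to amino allyl aRNA (Ambion kit) and labelled with Cy3 or Cy5. The deposited scanner files hold 30336 spots in 48 blocks, each with a linear intensity per channel, its local background and the SD of that background. The authors' log2 ratios of the deposited series table, in channel order, were used as an alternative only. The sources used here name neither scanner nor software. From the intensities, background was corrected with normexp (offset 50) and 1 loess curve was fitted per array in R 4.3.3 with limma 3.58.1. The 696 control spots and 49 probes marked bad were left out. Signals were called by 2 background SD, genes are means of their probes that passed, and both arrays of a line were averaged before limma (lmFit, eBayes) set both line means against 0, two-sided. The fit was run on simulated arrays with independent noise and the same change added to every array. That setting lacks the correlations between arrays given above and the open direction of array 2, so it cannot vouch for the calls here. For the average signal, arrays were quantile-normalized.

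A member at least 2-fold changed on both arrays, switched on, called by limma or apart between the lines is given on every array. So are the 2 members of each role with the largest absolute mean log2 ratio over both lines. Other members named were chosen after their values were seen. Members and lists were chosen with earlier results of these data known. The number of arrays limits the precision. Symbols came from the platform annotation, where 14296 probes carried 1 symbol and 447 several, which were not named. Alternatives were the labels' channel order, arrays with treated RNA in Cy5 only, each array left out, the authors' background-subtracted intensities, median centring, block medians, the deposited ratios, other filters and thresholds, and probes not averaged.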

Additional observations from a re-analysis of the deposited data

Results flagged for a closer look

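NDRG4 and MYOD1 were above 0 on both arrays of one line and below 0 on both arrays of the other in channel 2 over channel 1, and the difference between the lines was not tested. For NDRG4 the mean log2 ratio of treated over untreated was 0.36 in DLD-1 and -0.53 in HT-29, a difference of 0.888. NDRG4 on HT-29 array 1 read 117 over a local background of 49.1 in the treated channel and 571 over 345 in the untreated one. The spot was thus dim in both channels, and that array carried most of the difference. For MYOD1 the mean was -0.19 in DLD-1 and 0.52 in HT-29, a difference of -0.706. Under the labels' channel order the means were 0.30 in DLD-1 and -0.48 in HT-29 for NDRG4, and -0.02 in DLD-1 and -0.18 in HT-29 for MYOD1.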

How the results depend on the processing

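No member was called by limma under the labels' channel order, the arrays with treated RNA in Cy5, the authors' background-subtracted intensities, median centring, block medians, the deposited ratios, both filters or single probes. Leaving out 1 array gave 0 to 1 member called, RASSF1 without DLD-1 array 2 (mean log2 ratio 0.95), when 427 of 8621 genes were called. Members at least 2-fold changed numbered 2 in DLD-1 (RASSF1 and SST, 4.37% of all genes) and 2 in HT-29 (NDRG4 and UNC5C, 4.8%) with treated RNA in Cy5 only, where 1 array stands for a line. With 1 array left out they numbered 2 to 2 in DLD-1 (4.37% to 5.72% of all genes) and 1 to 2 in HT-29 (3.51% to 4.8%), and with no filter 1, TFPI2, in DLD-1 (0.238%). Members silent in untreated cells numbered 9 in DLD-1 (25.1% of all genes) and 11 in HT-29 (28.6%) with treated RNA in Cy5 only, 5 to 9 in DLD-1 (10.5% to 25.1%) and 8 to 11 in HT-29 (15.6% to 28.6%) with 1 array left out, and 8 in DLD-1 (11.2%) where any silent probe sufficed. Switched on in HT-29 was 1 with treated RNA in Cy5 only (1.29% of all genes) and 0 to 1 with 1 array left out (0.139% to 1.29%). Members apart between the lines numbered 4 to 10 with 1 array left out (23.3% to 40.6% of all genes) and 5 with the authors' background-subtracted intensities (23.1%). With median centring the 2 were CACNA1G and DAPK1, and ID4 was not among them.

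Mean log2 ratios over both lines changed sign under the labels' channel order for MYOD1 (-0.10), TUSC3 (-0.33), DCC (-0.012), SPARC (-0.27), THBS1 (-0.10) and GPX3 (-0.46). MYOD1 was -0.0071 with block medians set to 0, and TUSC3 was -0.15 with treated RNA in Cy5 only. With 1 array left out, RASSF1 ran from -0.20 (without DLD-1 array 1) to 0.95, SST from -0.62 to 0.22 (without DLD-1 array 1) and TUSC3 from -0.019 (without HT-29 array 2) to 0.38. Members that kept their sign moved too, as GPX3 ran from 0.17 to 0.77 and SPARC from 0.14 to 0.52. APC ran from -0.41 to -0.075, CXCL12 from -0.29 to -0.037 and WRN from -0.56 to -0.13. The causes were not tested. The other alternatives run kept the direction of the mean for each of the 12 named members. No paired analysis was possible because replicate numbers mark the dye orientation, per the labels, and each ratio already pairs treated with untreated RNA.

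Calls of genes moved more than 1.5 times: of all genes limma called 20 in the working reading, 58 in the labels' channel order, 339 with treated RNA in Cy5 only, 5 with the authors' background-subtracted intensities, 2 with block medians set to 0, 9 with the deposited ratios, 38 with no filter, 13 with both channels above background and 33 as probes. Without 1 array it called 8, 427, 15 and 8 (DLD-1 arrays 1 and 2, HT-29 arrays 1 and 2). The standard error of 0.217 per mean and the 2 lines limit what could be called.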

Other observations

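CRABP1, which binds retinoic acid in the cytoplasm, is named for 1 probe in the scanner files' own description and not in the platform table. Its log2 ratios of channel 2 over channel 1 were -0.23 and 0.08 in DLD-1 and 0.06 and -0.04 in HT-29, all close to 0. On DLD-1 array 1 it read 560.0 treated over 298 and 560 untreated over 352, not above background in either channel. It was above background in both channels of DLD-1 array 2 and in channel 1 of HT-29 array 2.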
